A study of Homo sapiens with 4 samples.

Results

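Most of the genome in this series carried more peaks in TGF-β1-treated cells than in control cells. The 14 dense bins described here went the other way. They are stretches of 1 Mb on chromosomes 1 to 22 that held at least 20 peaks of both lists together, each peak placed by its summit, and more control than TGF-β1 peaks. Their members are all peaks inside them, 792 of the 20358 peaks of both lists on these chromosomes and of 21300 in all. These were 202 of 15559 TGF-β1 peaks (1.30%) and 590 of 4799 control peaks (12.3%). The bins were chosen on the peak counts of the libraries described, so the excess of control peaks is their definition and not a result.

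Chromatin immunoprecipitation followed by sequencing (ChIP-seq) was carried out on human cells labelled HSC, of the type stem cells and progenitors. The series had 4 libraries, namely ChIP and input of cells given transforming growth factor β1 (TGF-β1) for 2 h at 20 ng/mL and ChIP and input of control cells. Input is chromatin sequenced without the antibody step. The treatment protocol of all 4 libraries, those of control cells among them, also mentions GDF11 (100 ng/mL). The sources used here give neither the antibody nor whether any of these cells received GDF11. Peak lists hold no marker levels, so the cell type could not be checked. With 1 library per group there was no test between conditions, intervals cover counting error only, and neighbouring peaks are not independent.

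The pericentromeric parts of human chromosomes are built largely of satellite DNA, short units repeated in tandem over long stretches, and of segmental duplications, longer blocks copied between chromosomes. They are packed for the most part as constitutive heterochromatin. Assemblies such as hg38 hold fewer copies of such repeats than a real chromosome does, so reads from many copies are placed on the few that are there, in ChIP and input libraries alike. Such stretches are known for high read coverage in sequencing experiments of many kinds.

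The 14 bins were 21.5% of the 65 dense bins, while 5.83% of the 2725 bins with any peak had more control peaks. They lay on 9 chromosomes, namely 1, 2, 4, 5, 10, 16, 17, 20 and 21, and on chromosomes 2, 10, 16, 17 and 21 there were 2 each. As background, these are stretches near centromeres, and on chromosome 21 on the short arm. The bin with the most peaks was on chromosome 10 (41000000 to 41999999, hg38 here and throughout), with 92 TGF-β1 and 102 control peaks. The chromosome 4 bin (49000000 to 49999999) had 17 TGF-β1 and 118 control peaks. The chromosome 1 bin (143000000 to 143999999) had 1 TGF-β1 and 83 control peaks, and the chromosome 20 bin (31000000 to 31999999) 1 and 44. These last bins were thus nearly without TGF-β1 peaks.

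The second chromosome 10 bin (42000000 to 42999999) had 4 TGF-β1 and 35 control peaks, the first chromosome 16 bin (34000000 to 34999999) 6 and 28, and the second (46000000 to 46999999) 2 and 18. On chromosome 2 the first bin (89000000 to 89999999) had 2 TGF-β1 and 20 control peaks and the second (90000000 to 90999999) 1 and 25. On chromosome 17 they had 3 and 22 (21000000 to 21999999) and 7 and 15 (26000000 to 26999999). In the remaining bins the lists were closer in number. The chromosome 5 bin (49000000 to 49999999) had 32 TGF-β1 and 34 control peaks, the first chromosome 21 bin (8000000 to 8999999) 14 and 20, and the second (10000000 to 10999999) 20 and 26.

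**Figure D1:**
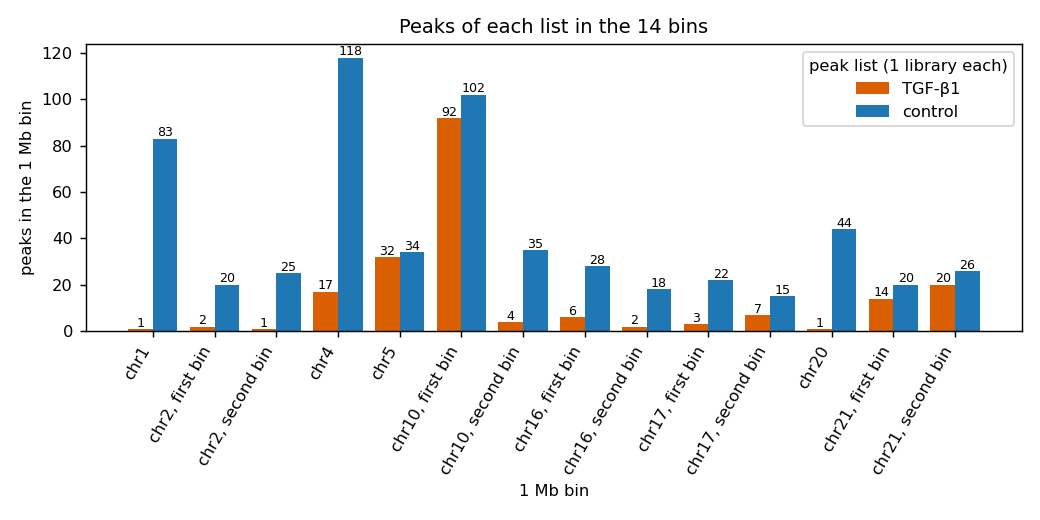
Number of TGF-β1 and control peaks in each of the 14 bins, 1 library per list. Control bars are the taller in every bin, by the rule that chose them, from 32 against 34 peaks in the chromosome 5 bin to 1 against 83 in the chromosome 1 bin.

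The chromosome 5 bin was the member nearest to the limit, by 2 peaks. Just outside lay a dense bin on chromosome 9 from Mb 60, with 23 TGF-β1 and 18 control peaks, and a bin on chromosome 1 from Mb 125, which had 2 and 13 peaks and so fell short of 20. Summed over the members the ratio of TGF-β1 to control peaks was 0.342 (exact interval 0.290 to 0.402), against 3.24 (3.14 to 3.35) on all of chromosomes 1 to 22. Without the first chromosome 10 bin, which has the most peaks, it was 0.225. The TGF-β1 peaks of the members were unevenly spread. In the 9 bins with 7 or fewer there were 27 TGF-β1 and 290 control peaks, and the 4 bins with the most TGF-β1 peaks held 161, or 79.7%, of them. The 23 adjoining bins that were not members held 287 TGF-β1 and 73 control peaks. Of these bins 15 had more TGF-β1 and 2 more control peaks.

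Within the bins most control peaks stood in short, tightly packed runs. When control peaks 10 kb or less apart were joined, 13 runs of 10 or more peaks appeared, in 12 of the 14 bins. They held 485 of the 590 control peaks (82.2%) in a summed span of 479 kb. No TGF-β1 summit of the 202 lay inside such a run, and 12 lay inside a shorter run or a single control peak. The runs of 10 or more span a small part of the 14 bins, so few summits would fall there if spread evenly. Whether TGF-β1 signal was present there without a called peak was not tested. Runs were 4.98 to 87.1 kb long (median 24.6 kb), and peaks took up 16.3% to 59.9% of their length. The chromosome 1 run was the longest and held all 83 control peaks of its bin (143184627 to 143271758). Its single TGF-β1 peak, at 143807195 to 143807334 with a pileup of 13 tags and a fold of 4.22, stood 536 kb from the nearest control summit of the bin.

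The next longest runs were on chromosome 10, with 91 control peaks in 76.5 kb (41839465 to 41915958), chromosome 4, with 75 in 65.3 kb (49091297 to 49156612), and chromosome 5, with 25 in 45.2 kb (49601105 to 49646280). The second chromosome 10 bin had a run of 30 in 35.2 kb (42066565 to 42101758), and chromosome 4 a second run of 37 in 26.7 kb (49631327 to 49658007). In the first chromosome 10 bin, the TGF-β1 peaks ran from 41012692 to 41698535 and ended before its run began. The 11 other control peaks of the bin lay among the TGF-β1 peaks. On chromosome 4 the first of the 17 TGF-β1 peaks began at 49585303, and all 17 summits fell outside both of its runs. Each chromosome 2 bin had all of its control peaks in a single run, 20 in 22.8 kb (89818361 to 89841182) and 25 in 21.6 kb (90380670 to 90402276). The chromosome 21 bins had no run of 10. There the median gap between control peaks was 3710 and 9032 bp, against 212.5 to 925 bp in the other 12 bins.

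**Figure D2:**
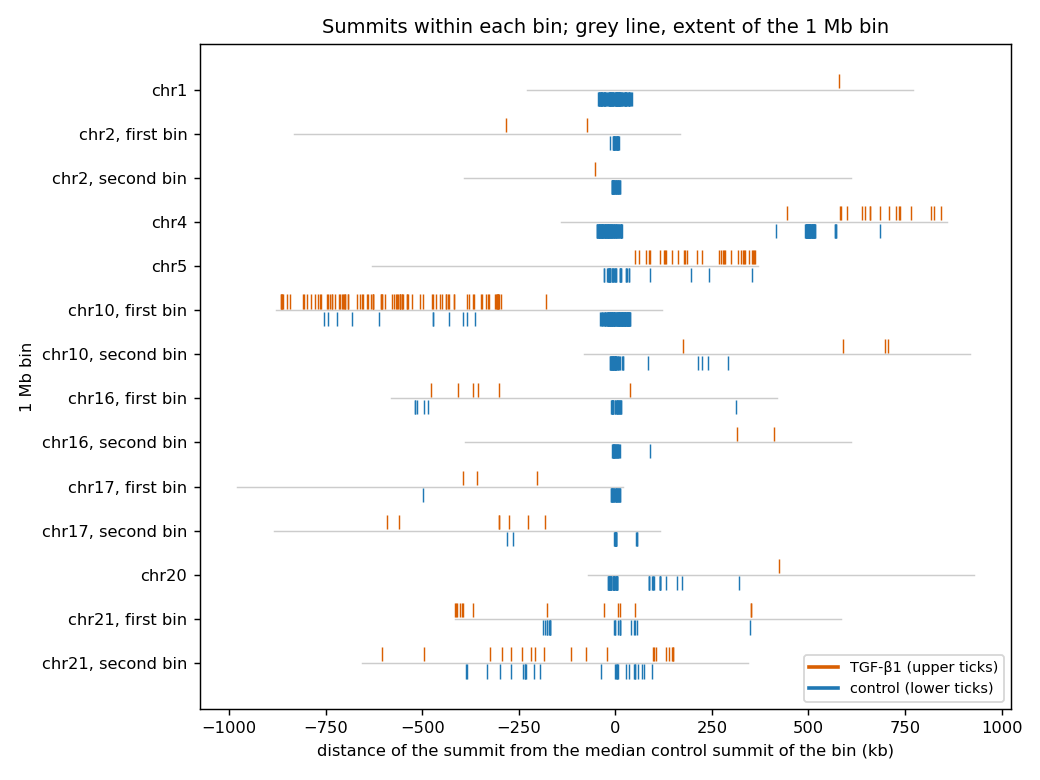
Summits of TGF-β1 peaks (upper ticks) and control peaks (lower ticks) in each bin, as distance in kb from the median control summit of the bin, with a grey line for the extent of the bin. Control summits form the tight runs described, 13 of them with 10 or more peaks, and the TGF-β1 summits lie outside those runs.

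Distances between the lists were taken within each bin and were not compared with those of other bins. The median TGF-β1 summit was 28.6 kb from the nearest control summit of its bin and the median control summit 186 kb from the nearest TGF-β1 summit of its bin. Within 1 kb of a summit of the other list lay 11 TGF-β1 and 13 control summits, and more than 100 kb away lay 34 TGF-β1 and 378 control summits.

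The pileup, which is the number of ChIP tags that cover the summit once each is extended to the fragment length, also separated the lists. In the members it was 13 to 188 tags in TGF-β1 peaks, with a median of 35 (interval of the median 33 to 38), and 16 to 296 tags in control peaks, with a median of 232 (225 to 237). The control median was the higher in all 14 bins, at 131 to 281 tags against 13 to 48. In the chromosome 1, second chromosome 2 and chromosome 20 bins, the TGF-β1 median of this and later measures is that of 1 peak. Per 1000000 ChIP tags the medians over the members were 0.761 for TGF-β1 peaks and 6.40 for control peaks. In the 51 dense bins with more TGF-β1 peaks the medians were 46 and 106 tags, and outside dense bins 17 and 19, so the gap was widest in the members.

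The control pileups ran up to the highest value the peak calling allows. With 1 tag kept per position, as the file headers state, and both strands counted, no pileup can exceed 2 fragment lengths, which is 272 tags in the TGF-β1 library and 296 in the control library. In the members 0 of 202 TGF-β1 peaks, where 3 counts, the limit for a count of 0, would be 1.49%, and 32 of 590 control peaks (5.42%, Wilson interval 3.87% to 7.56%) stood at that ceiling. The 32 were 22 in the chromosome 1 bin, 5 in the second chromosome 16 bin, 2 each in the chromosome 5 and the first chromosome 16 bin and 1 in the second chromosome 10 bin. Over all control peaks on chromosomes 1 to 22 there were 39, so the members held 82.1% of them (67.3% to 91.0%). Of all 15559 TGF-β1 peaks on these chromosomes 0 stood at the ceiling, and the highest reached 90.1% of it. The 0 among TGF-β1 peaks is therefore no trait of the members. At 50% or more of the ceiling stood 6 TGF-β1 peaks of the members, or 2.97% (1.37% to 6.33%, against 1.78% of all TGF-β1 peaks on these chromosomes), and 530 control peaks, or 89.8% (87.1% to 92.0%, against 18% of all control peaks).

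Local background, the value the pileup was tested against, was high under the same control peaks. It exceeded 5 times the genome-wide background under 96 of the TGF-β1 peaks, or 47.5% (40.7% to 54.4%, against 17.1% of all TGF-β1 peaks on these chromosomes), and under 581 of the control peaks, or 98.5% (97.1% to 99.2%, against 35.6% of all control peaks). In the dense bins with more TGF-β1 peaks the shares were 57.1% (55.6% to 58.5%) and 88.4% (86.4% to 90.2%). Medians of the background in the members were 10.8 tags for TGF-β1 peaks and 125 tags for control peaks. These values are on the scale of the ChIP library, to which the caller brings the input. The TGF-β1 input held 1.02 times as many tags as its ChIP library and the control input 1.83 times as many, so coverage of the inputs was multiplied by 0.983 and 0.545.

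Divided by those factors, the background is returned to the depth of the input. It then came within 0.01 of a whole number of tags for 169 of the 202 TGF-β1 peaks (83.7%) and 576 of the 590 control peaks (97.6%). In dense bins with more TGF-β1 peaks these shares were 79.3% and 96.0%, and outside dense bins 65.2% and 84.8%. On the scale of the input the median background was 11 tags (10 to 12.9) under the TGF-β1 peaks and 230 tags (224 to 236) under the control peaks. At 50% or more of the ceiling stood the input under 0 TGF-β1 and 533 control peaks (90.3%, 87.7% to 92.5%), against 0.0193% of all TGF-β1 and 14.6% of all control peaks on chromosomes 1 to 22.

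ChIP coverage and input coverage at most control peaks were close to equal in tags. The median ratio of pileup to local background at the depth of the input was 3.19 (3.07 to 3.38) in the TGF-β1 peaks and 1.00 (1.00 to 1.00) in the control peaks of the members. By bin the medians ran from 2.42 to 5.51 for TGF-β1 peaks and from 0.917 to 1.11 for control peaks, so the medians did not overlap. Single peaks did, with 1.39 as the lowest TGF-β1 and 4 as the highest control ratio. The 5.51 is that of the only TGF-β1 peak of the chromosome 1 bin. Its local background of 2.32 tags on the scale of the ChIP library was the genome-wide value. A ratio of 0.8 to 1.2 was found for 0 TGF-β1 peaks (0% of all TGF-β1 peaks on chromosomes 1 to 22) and for 539 control peaks of the members, or 91.4% (88.8% to 93.4%, against 18.7% of all control peaks). The lowest ratio of any TGF-β1 peak on these chromosomes was 1.38, and the TGF-β1 input was scaled by 0.983. The 0 is therefore a limit of the calling and not a trait of the members. The gap between the lists in this ratio was not tested. In dense bins with more TGF-β1 peaks the medians of the ratio were 3.11 and 1.38, and outside dense bins 4.25 and 2.21. Over the 202 TGF-β1 peaks of the members, pileup and input coverage had a Pearson r of 0.911 and a Spearman rho of 0.878. Over the 590 control peaks the values were 0.954 and 0.927. In dense bins with more TGF-β1 peaks r was 0.947 and 0.945, and outside dense bins 0.891 and 0.977. Input coverage was computed from pileup and fold, and a called peak must exceed its scaled background. A high correlation is thus built in and is no measure of equal coverage. The peaks of a list share 1 pair of libraries.

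Among the members 201 TGF-β1 peaks (99.5%, against 99.9% of all TGF-β1 peaks on chromosomes 1 to 22) and 18 control peaks (3.05%, against 69.3% of all control peaks) had at least 1.5 times the input coverage, a limit set after the data were seen. With the input scale of the TGF-β1 pair nearly every called TGF-β1 peak passes that limit, so it can remove hardly any but control peaks. Under 50% of the ceiling stood 196 TGF-β1 peaks (against 98.2% of all TGF-β1 peaks) and 60 control peaks (against 82% of all control peaks). The part of the unequal input depths in the excess of control peaks was not tested.

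**Figure D3:**
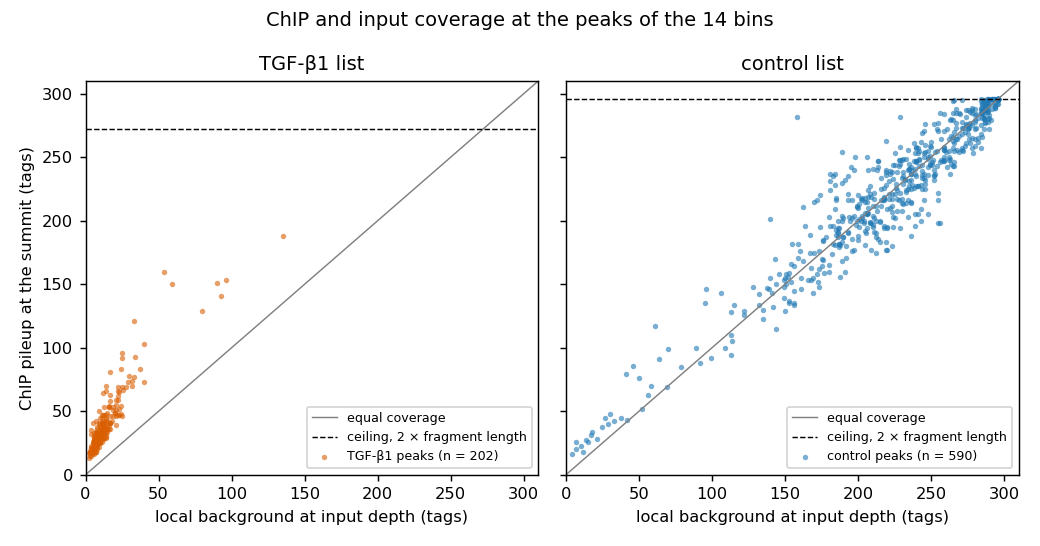
ChIP pileup against local background brought back to the depth of the input, both in tags, for the TGF-β1 peaks (left) and control peaks (right) of the 14 bins, each point a peak, with the line of equal coverage and the ceiling of 272 or 296 tags. Control peaks follow the line of equal coverage up to the ceiling (median ratio 1.00), and TGF-β1 peaks lie above the line at low input coverage (median ratio 3.19).

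Fold enrichment, the authors' ratio of pileup to scaled background, gathered at a single value in the control list. Its median in the members was 3.05 (2.95 to 3.16) for TGF-β1 peaks and 1.83 (1.83 to 1.84) for control peaks, and the TGF-β1 median was the higher in all 14 bins. Where ChIP and input both stand at the ceiling, the scaling alone sets the fold at 1.02 in the TGF-β1 pair and 1.83 in the control pair. The lowest fold of any TGF-β1 peak on chromosomes 1 to 22 was 1.40. Within 10% of these values lay 0 TGF-β1 peaks and 461 of the 590 control peaks (78.1%, 74.6% to 81.3%), against 0% of all TGF-β1 and 13.9% of all control peaks. Of all 717 control peaks with a fold under 2 on chromosomes 1 to 22, 503 lay in the members (70.2%, 66.7% to 73.4%). In dense bins with more TGF-β1 peaks the median folds were 2.99 and 2.5, and outside dense bins 3.63 and 3.52.

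Control peaks of the members had the lower median fold and the higher median significance. The −log10 q, from the caller's Poisson test, had a median of 5.05 (4.41 to 5.65) in TGF-β1 peaks and 12.6 (11.9 to 13.4) in control peaks of the members. It was at least 10 for 29 TGF-β1 peaks, or 14.4% (10.2% to 19.9%, against 8.83% of all TGF-β1 peaks on these chromosomes), and for 407 control peaks, or 69.0% (65.1% to 72.6%, against 22.8% of all control peaks). A fold of at least 2.5 was reached by 152 TGF-β1 peaks, or 75.2% (68.9% to 80.7%, against 89.3%), and by 22 control peaks, or 3.73% (2.47% to 5.58%, against 73% of all control peaks).

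**Figure D4:**
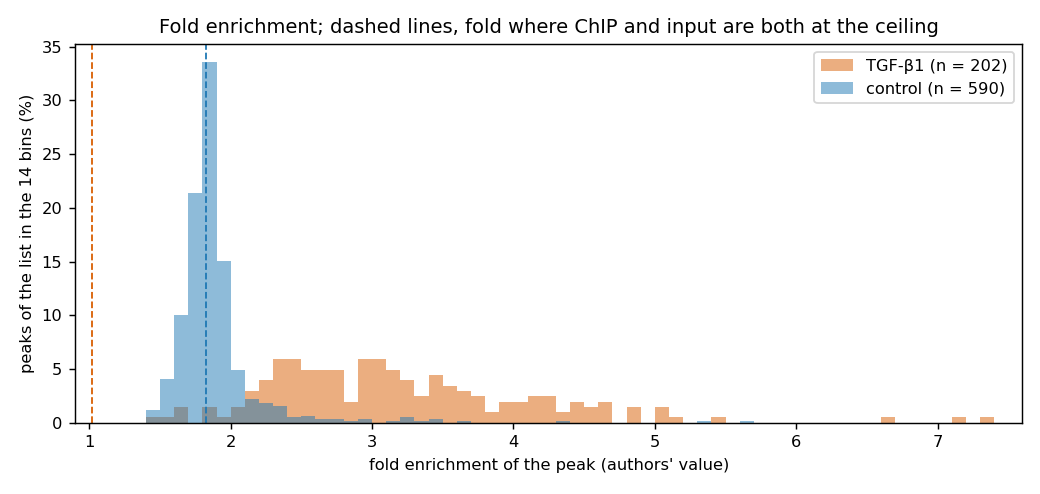
Share of the TGF-β1 (n = 202) and control (n = 590) peaks of the 14 bins by fold enrichment in steps of 0.1, with dashed lines at the fold reached when ChIP and input are both at the ceiling (1.02 in the TGF-β1 pair, 1.83 in the control pair). Control peaks gather at 1.83 and TGF-β1 peaks spread around a median of 3.05.

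Control peaks of the members were also long. Median length was 155 bp (150 to 162) for TGF-β1 peaks and 274 bp (248 to 294) for control peaks, and the shortest were 136 and 148 bp, which are the fragment lengths. The control median was the longer in all 14 bins, at 183 to 391 bp against 137 to 192.5 bp. Over 300 bp were 3 TGF-β1 peaks, or 1.49% (0.506% to 4.27%, against 1.36% of all TGF-β1 peaks), and 257 control peaks, or 43.6% (39.6% to 47.6%, against 7.5% of all control peaks). In the dense bins with more TGF-β1 peaks 2.44% of TGF-β1 peaks and 4.64% of control peaks were that long. Of the 26 control peaks over 1000 bp on chromosomes 1 to 22, 24 were members. No TGF-β1 member reached 500 bp, but over 500 bp were only 2 of all 15559 TGF-β1 peaks on these chromosomes (0.0129%).

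The longest control peaks were on chromosomes 16 and 5. The longest, at 46398531 to 46401653 on chromosome 16, measured 3123 bp and had 296 tags in ChIP and 296 in the input, both at the ceiling. The next, on chromosome 5 at 49656360 to 49659260, measured 2901 bp with 289 ChIP and 287 input tags. The third, again on chromosome 16 (46389585 to 46391410), measured 1826 bp with 296 tags in each. All 3 had a fold of 1.83 or 1.84. The longest TGF-β1 peaks of the members were 326 and 312 bp, both on chromosome 10 (41425357 to 41425682 and 41500020 to 41500331), with 29 and 36 ChIP tags and folds of 3.39 and 3.42. Together the peaks of the members covered 34.5 kb (TGF-β1) and 218 kb (control).

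Few members, and among TGF-β1 peaks no smaller a share than on all of chromosomes 1 to 22, overlapped a peak of the other list. By 1 bp or more, 11 TGF-β1 peaks did, or 5.45% (3.07% to 9.49%, against 4.79% of all TGF-β1 peaks on chromosomes 1 to 22), and 11 control peaks, or 1.86% (1.04% to 3.31%, against 15.4% of all control peaks). In the dense bins with more TGF-β1 peaks the shares were 15.2% (14.1% to 16.3%) and 57.9% (54.9% to 60.8%). Outside dense bins they were 0.844% (0.690% to 1.03%) and 3.02% (2.48% to 3.69%). These sets were chosen on their counts, which limit the share: with 202 TGF-β1 peaks, and 1 control peak to each, at most 34.2% of the control peaks of the members could overlap. The control shares are therefore given as a description, and how they differ between the sets was not tested.

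**Figure D5:**
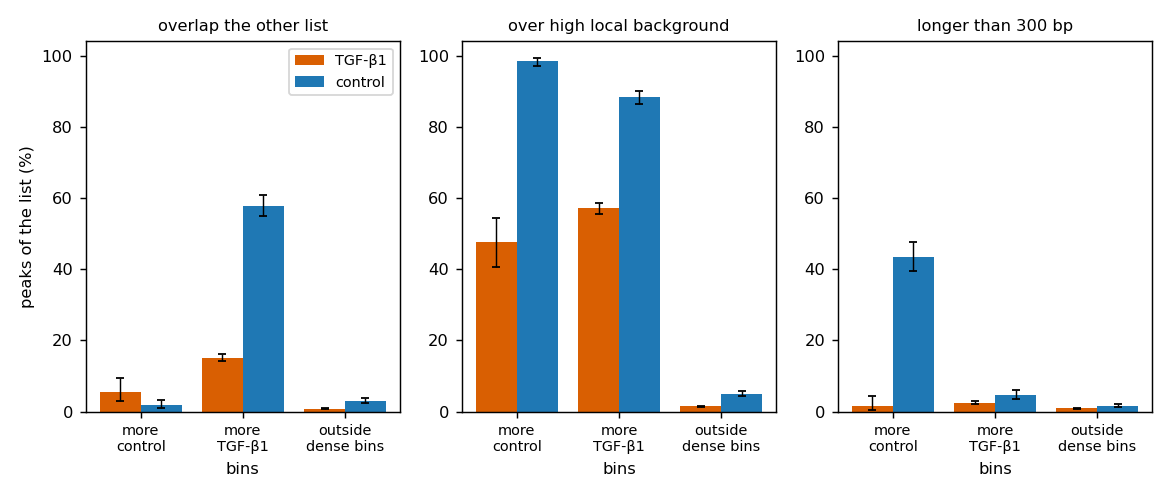
Share of TGF-β1 and control peaks that overlap the other list, lie over high local background or exceed 300 bp, in the 14 dense bins with more control peaks, the 51 with more TGF-β1 peaks and outside dense bins, with Wilson 95% intervals. In the 14 bins 98.5% of control peaks lay over high background, against 88.4% in the 51, and 1.86% and 57.9% overlapped a TGF-β1 peak, a share that the counts used to choose the bins limit.

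The 11 overlapping pairs lay in 5 bins, with 4 in the first chromosome 21 bin, 3 in the first chromosome 10 bin, 2 in the chromosome 5 bin and 1 each in the chromosome 4 and the second chromosome 21 bin. None was in a run of 10 or more control peaks. Their summits were 0 to 109 bp apart. In the pairs both lists had alike pileups, 28 to 188 tags (median 121) in TGF-β1 peaks and 28 to 181 tags (median 117) in control peaks. Per 1000000 ChIP tags the control pileup was the higher in all 11 pairs. The folds were alike too, with medians of 2.27 and 2.25, and the TGF-β1 fold was the higher in 5 of 11 pairs. With the input at its own depth the median ratios were 2.33 and 1.27, so the likeness of the folds holds on the scaled input only.

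The pair of highest TGF-β1 pileup was on chromosome 21, where the summits fell on the same base. The TGF-β1 peak (8428816 to 8429022) had 188 ChIP and 135 input tags and a fold of 1.41, and the control peak (8428759 to 8429043) had 181 ChIP and 205 input tags and a fold of 1.61. Next came a pair on chromosome 10 with the higher fold in the TGF-β1 list. Its TGF-β1 peak (41405836 to 41405974) had 160 ChIP and 54 input tags and a fold of 2.98, and its control peak (41405825 to 41405983) 146 ChIP and 96 input tags and a fold of 2.76. The other pairs among the top 5 were again on chromosome 21.

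The first of these lay in CDC27P10, a transcribed pseudogene, with 153 ChIP and 96 input tags in the TGF-β1 peak (8423115 to 8423359, fold 1.62) and 148 and 149 in the control peak (8423090 to 8423358, fold 1.81). The next had 151 ChIP and 90 input tags in the TGF-β1 peak (8467677 to 8467978, fold 1.70) and 147 and 138 in the control peak (8467669 to 8467888, fold 1.94). The last lay in CDC27P9, another pseudogene of that family, with 141 ChIP and 93 input tags in the TGF-β1 peak (8240134 to 8240288, fold 1.54) and 129 and 150 in the control peak (8240112 to 8240417, fold 1.57). In all 5 pairs the ChIP libraries differed by at most 14 tags, and the control input had 42 to 70 tags more than the TGF-β1 input. These tags are not adjusted for depth. In all, the inputs held 66537905 (control) and 46802425 (TGF-β1) tags, and the ChIP libraries 36280696 and 45984282. The pseudogenes are near copies of each other, and which of them a read came from is uncertain.

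Control peaks outside the long runs were less uniform than the 485 inside them. Their pileups ran from 16 to 293 tags (median 155), against 100 to 296 (median 240) inside. They included all 11 overlapping control peaks and 21 of the 22 with a fold of at least 2.5. The highest folds were 5.61 on chromosome 10 (41484402 to 41484583, 26 ChIP and 7 input tags), 5.34 on the same chromosome (42372738 to 42372913, 16 and 4 tags) and 4.36 on chromosome 20 (31391062 to 31391354, 20 and 7 tags). These 3 had pileups near 19 tags, the median of control peaks outside dense bins.

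A single control peak joined a pileup near the ceiling with a raised ratio. On chromosome 17 at 26603815 to 26603995 the ChIP library had 282 tags, 95.3% of the ceiling, and the input 158. Its fold was 3.25 and its −log10 q of 52.7 was the highest among control peaks on chromosomes 1 to 22. It was singled out after its values were seen. The nearest TGF-β1 summit of the bin was 5.42 kb away.

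The TGF-β1 peaks of the members resembled those of other dense bins more than they did the control peaks beside them. Their median pileup of 35 tags compared with 46 in the dense bins with more TGF-β1 peaks, their median fold of 3.05 with 2.99 and their median length of 155 bp with 159 bp. The highest folds were in the first chromosome 10 bin, at 7.30 (41339896 to 41340131, 35 ChIP and 4 input tags), 7.1 (41413359 to 41413534, 41 and 5 tags) and 6.69 (41166600 to 41166788, 32 and 4 tags). The highest pileups apart from the pairs were 150 tags on chromosome 16 (34620764 to 34620899, fold 2.56), 129 tags on chromosome 21 (8385742 to 8385896, fold 1.63) and 103 tags on chromosome 5 (49956909 to 49957077, fold 2.58). These peaks had 59, 80 and 40 input tags. By bin the median −log10 q of TGF-β1 peaks was highest in the chromosome 5 bin, at 6.98, and the first chromosome 10 bin, at 6.34.

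In the other bins the TGF-β1 peak of highest pileup had far fewer ChIP tags than the control peak of highest pileup. On chromosome 4 it had 47 tags and a fold of 3.97 (49957638 to 49957790), against 293 tags and a fold of 1.86 for the control peak at 49709182 to 49710190. In the second chromosome 10 bin the values were 33 tags and 4.85 (42255981 to 42256132) against 296 tags and 1.83 (42070350 to 42071111). On chromosome 20 they were 19 tags and 3.79 (31494520 to 31494656) against 260 tags and 1.93 (31157660 to 31157902). In the second chromosome 21 bin they were 73 tags and 1.84 (10415726 to 10415893) against 293 tags and 1.86 (10692683 to 10693100). The control peak had the higher pileup in all 4 bins. The fold was higher in the TGF-β1 peak in 3 of them and nearly alike on chromosome 21.

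On chromosome 2 the TGF-β1 peaks of highest pileup had 25 tags each, with folds of 2.93 (89758966 to 89759103) and 2.40 (90337084 to 90337237). The control peaks had 275 tags and 1.84 (89830917 to 89831426) and 287 tags and 1.82 (90395467 to 90395754). On chromosome 17 the TGF-β1 peaks had 17 tags and 4.28 (21584754 to 21584897) and 28 tags and 4.11 (26657438 to 26657584). The control peaks there had 254 tags and 1.79 (21976585 to 21977187) and 288 tags and 1.97 (26885297 to 26885626). The fold again was the higher in TGF-β1 in each case. The second chromosome 16 bin had 23 tags and 3.05 (46801372 to 46801512) against 296 tags and 1.88 (46386171 to 46386779), 1 of 5 control peaks at the ceiling. The control peaks of highest pileup in the remaining bins had 296 tags and a fold of 1.87 on chromosome 1 (143203313 to 143203598), 296 tags and 1.91 on chromosome 5 (49645963 to 49646280) and 278 tags and 1.88 in the first chromosome 10 bin (41914521 to 41915184). In the first chromosome 16 bin the values were 296 tags and 1.83 (34582693 to 34583901), and in the first chromosome 21 bin 257 tags and 1.69 (8234118 to 8234658). The folds of these control peaks all lay below 2.

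Few peaks of the members lay in genes, and most genes that the RefSeq table lists in the bins are not protein-coding. The 14 bins overlap 304 genes, of which 139 are pseudogenes and 43 protein-coding. The same shares over all genes of the RefSeq table are not given here, so these counts only describe the bins. The chromosome 5 bin and the first chromosome 10 bin overlap no gene at all, and 5 bins have no protein-coding gene. Summits inside any gene numbered 19 TGF-β1 (9.41%, 6.10% to 14.2%, against 41.4% of all TGF-β1 peaks on chromosomes 1 to 22) and 31 control (5.25%, 3.73% to 7.36%, against 36.1% of all control peaks). In the dense bins with more TGF-β1 peaks the shares were 0.237% and 0.637%. Inside a protein-coding gene lay 5 TGF-β1 summits (2.48%, against 31.4%) and 0 of the 590 control summits (against 26.3%). The median distance to the nearest protein-coding gene was 802 kb for TGF-β1 summits and 507 kb for control summits. In the bins without such a gene the nearest were RPIA, EMB, ZNF33B, WSB1 and LOC102723475, at 249, 396, 574, 294 and 170 kb from their bins.

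The protein-coding genes with a TGF-β1 summit were BMS1, which encodes a factor of ribosome assembly, MYLK3, a kinase of cardiac myosin light chain, C16orf87 and TPTE, which is expressed in testis. BMS1 (chromosome 10, 42782795 to 42834937) had a peak with 18 tags and a fold of 4.52 (42786461 to 42786611). MYLK3 (chromosome 16, 46702282 to 46763246) had 15 tags and 3.61 (46704143 to 46704278), and C16orf87 (46796603 to 46831180) held the peak of 23 tags named above. TPTE (chromosome 21, 10521583 to 10605716) held 2, of 21 tags with a fold of 4.64 (10543046 to 10543203) and of 29 tags with a fold of 2.18 (10581792 to 10581933). Each of these genes held no control summit. TPTE has near copies elsewhere, so the origin of reads in it is uncertain. The chromosome 20 bin has the most protein-coding genes, 20, among them a cluster of β-defensins, and its control peak of highest fold lay 0.474 kb from DEFB119.

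Of the control summits inside genes, 20 of 31 lay in IGK, the immunoglobulin κ locus on chromosome 2 (88857361 to 90235368), which also held 2 TGF-β1 summits. The locus carries the segments from which κ light chains are assembled, and part of it is duplicated. The first chromosome 2 bin overlaps 24 V segments. Its 20 control peaks formed the run described, and the TGF-β1 peaks had 21 tags with a fold of 4.46 (89549331 to 89549521) and 25 tags with a fold of 2.93. BAGE2, a transcribed pseudogene beside TPTE, held 4 TGF-β1 and 6 control summits. No pair of them overlapped.

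The first chromosome 21 bin overlaps 12 ribosomal RNA genes, which encode the structural RNAs of the ribosome in units that are nearly identical between copies. None of its 14 TGF-β1 or 20 control summits lay inside them. All but 1 of the control summits were 3.82 to 27.8 kb from the nearest unit, and the last 317 kb away. The TGF-β1 summits were 3.22 to 322 kb away, 7 of them more than 158 kb before RNA45SN2.

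No sequence is shown for these regions. Of the 792 members, 0 overlapped a RefSeq promoter window or miRNA, for which sequence was at hand, and a genome sequence was not used here. The share over all peaks is not given here, so the 0 only explains why no sequence is shown.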

How the data were processed

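The authors deposited 1 peak list per condition. The submitters' processing notes name Bowtie2, hg38 and MACS2 2.1.0. Per the file headers, MACS 2.2.7.1 compared each ChIP library with the input of the same cells (q-value limit 0.05), keeping 1 tag per position and scaling the larger dataset to the smaller. After removal of duplicates the ChIP libraries held 45984282 (TGF-β1) and 36280696 (control) tags and the inputs 46802425 and 66537905, per the file headers. Tag length was 43 and 60 bp and fragment length 136 and 148 bp. Filters on mapping quality or on problem regions are not given in the sources used. Pileup, as deposited, is a signal in tags, the deposited fold a ratio, and the deposited −log10 p-value (not used for results) and −log10 q-value come from the authors' caller.

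Local background was computed as (pileup + 1) / fold − 1 and divided by the ratio of ChIP to input tags to return it to input depth. It is the highest of several values: the genome-wide background and input windows around the summit. Overlap was counted from 1 bp. Shares have Wilson 95% intervals, medians order-statistic intervals and ratios of counts exact intervals. Genes came from the RefSeq table of GRCh38.p14. Python 3.11.15, pandas 2.3.3 and scipy 1.17.1 were used. The steps were tested on simulated peaks with known answers. Members, limits and lists were chosen with earlier results of these data known. Named are each bin's peak of highest pileup, the 5 pairs of highest TGF-β1 pileup, the longest peaks, and protein-coding genes that hold a summit or lie nearest to a bin. Peaks of highest fold, unpaired TGF-β1 peaks of highest pileup and genes of other types were named after their values were seen.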

Additional observations from a re-analysis of the deposited data

How the results depend on the processing

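With 1 library per group no test and no leaving out of replicates was possible, and intervals cover counting error only. No paired analysis was possible because each group had 1 library. The number of member bins was 14 and stayed within 11 to 17 with bins of 0.5 or 2 Mb, moved edges, a minimum of 10 peaks, placement by the middle of the peak, a −log10 q of at least 5 or intervals counted once. It was 6 with a minimum of 40 peaks, 9 with a −log10 q of at least 10, and 22 with the TGF-β1 list cut by fold to the length of the control list. That cut kept the TGF-β1 peaks of highest fold and left the control list whole, so it removed TGF-β1 peaks only. In settings chosen after seeing the data, the number of bins was 0 with peaks under 50% of the ceiling only, and 0 with peaks of at least 1.5 times the input coverage only, so that both lists then had 0 member peaks. The TGF-β1 peaks in recomputed bins (202) were 113 with bins of 0.5 Mb, 80 with moved edges, 122 at a −log10 q limit of 5 and 34 at a limit of 10. Control peaks (590) were 356 with a −log10 q of at least 10 and 1361 with lists of equal length.

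In the bins as chosen, the ratio of TGF-β1 to control peaks (0.342) was 0.190 at a −log10 q limit of 5, 0.0712 at a limit of 10, 0.0746 with lists of equal length, 0.225 without the bin with the most peaks (chromosome 10, first bin) and 0.165 over high background. The cut to equal length removed only TGF-β1 peaks of lower fold and left 44 of the 202 in the members. Their median fold was 3.05, against 3.63 for TGF-β1 peaks outside dense bins. That cut thus weighs more on the members and is no match for depth. The ratio was 3.27 among peaks under 50% of the ceiling (196 and 60) and 11.2 among those of at least 1.5 times the input coverage (201 and 18), a limit that 99.9% of all TGF-β1 and 69.3% of all control peaks pass, so that it removes mostly control peaks. The cause was not tested. Overlap did not change with a summit or 50% reciprocal rule. At a −log10 q limit of 5 it was 0.743% of control peaks on 4 pairs, and at a limit of 10 it was 10.3% of TGF-β1 and 0.737% of control peaks, on 3 pairs. High background at 3 times the genome-wide value held for 72.3% of TGF-β1 and 99.3% of control peaks, and at 10 times for 12.9% of TGF-β1 peaks. The median pileup was 41.5 tags (TGF-β1) and 237.5 tags (control) at a −log10 q limit of 5, 238 tags in the control list without the bin with the most peaks, and 0.761 and 6.40 per 1000000 ChIP tags. The median TGF-β1 fold was 2.89 without that bin and 3.53 at a −log10 q limit of 5. With the input at its own depth, chosen after seeing the data, the median ratios were 3.19 and 1.00. TGF-β1 peaks covered 18386 bp without that bin, against 34501 bp with it.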
